A study of Mus musculus with 50 samples.

Results

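The effect of blocking the Notch ligands Jag1 and Jag2 on gene expression in the mouse thyroid was compared between 15 hours and 5 days after the antibodies were given. For each gene, the log2 fold change of treated over control libraries at 15 hours was subtracted from that at 5 days, and this difference is called the interaction below. A positive interaction means that the treated level, relative to control, was higher at 5 days than at 15 hours, and a negative one that it was lower. The contrast needs 4 groups, which hold 20 of the 50 libraries of the series, and 18 of these 20 were kept. Left out were the 2 libraries in which Tg, the gene of thyroglobulin, took less than 5% of all counts: RW replicate 3 and aJ1aJ2 replicate 3 at 5 days. The libraries were thus chosen by their Tg share, and the genes of thyroid function are given below as values without a test. Levels, ranges and overlaps of genes at 15 hours and 5 days refer to the 18 kept libraries, unless a library left out is named.

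All mice were male C57BL/6 animals from the Jackson Laboratory, aged 10 to 14 weeks in the treatment protocol and 10 to 12 weeks in the series description. Control mice received RW, an isotype antibody against ragweed, at 40 mg/kg. Treated mice received aJ1aJ2, a mixture of blocking antibodies against Jag1 and against Jag2, at 20 mg/kg each. Either was injected once into the peritoneum, so the whole animal was exposed and not the thyroid alone. The groups were RW at 15 hours (5 libraries), aJ1aJ2 at 15 hours (5), RW at 5 days (4 kept of 5) and aJ1aJ2 at 5 days (4 kept of 5). The series description mentions daily thyroid hormone from day 2, and no label says which mice received it. The labels give neither the hour of day at collection nor a statement that the libraries of a group came from separate animals, so p-values measure the spread between these libraries. RNA came from bulk thyroid tissue, in which fewer cells of a type and less RNA per cell cannot be told apart.

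Jag1 and Jag2 sit on the cell surface and bind Notch receptors on neighbouring cells. Binding leads to cleavage of the receptor, and its intracellular part enters the nucleus and switches on genes such as those of the Hes and Hey families. The thyroid consists of follicles whose epithelial cells make thyroglobulin in the endoplasmic reticulum and secrete it, set among capillaries, mural cells of vessels, fibroblasts and calcitonin-producing C cells.

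The 18 libraries held 23097765 to 52835846 counts, with Tg at 14.5 to 42.4% of counts. Since Tg chose the libraries, its share is no independent check of the labelled tissue. In the libraries left out Tg took 0.450% (RW) and 2.39% (aJ1aJ2), and the 9 genes of a skeletal muscle list took 12.1 and 8.33%. Among the 18, the muscle list took 0.0527 to 5.77%, with more than 4% in RW replicates 2 and 5 and aJ1aJ2 replicate 3, all at 15 hours. The library factors behind the deposited FPKM values, divided by size factors of the counts, were 0.918 to 0.932 at 15 hours and 1.09 to 1.11 in the kept libraries at 5 days. Within the 4 groups used, such a block of libraries and the time after injection cannot be told apart, while each comparison of aJ1aJ2 with RW lies within a block. Over the whole series the factors were not ordered by time, at 0.924 to 0.928 in RW at 7 days.

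**Figure D1:**
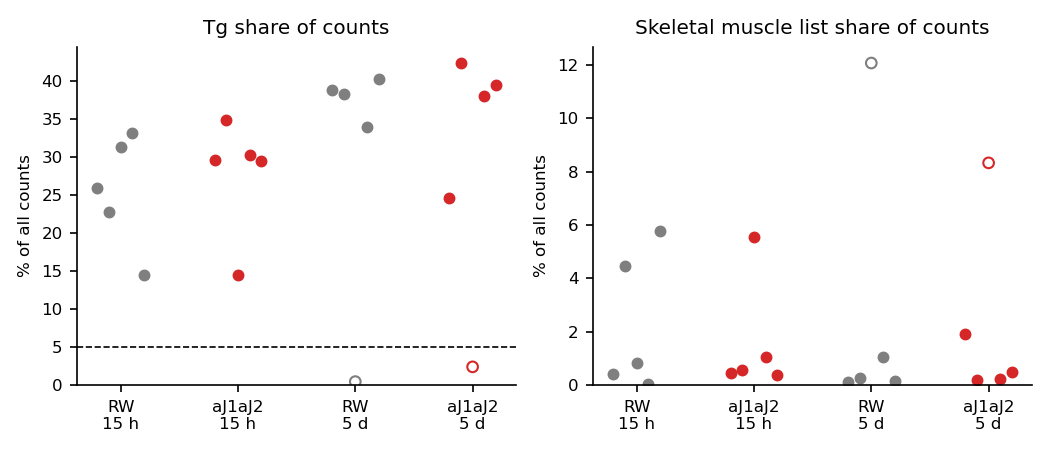
Share of all counts (%) taken by Tg (left) and by the 9 skeletal muscle genes (right) in each of the 20 libraries, by group (grey RW, red aJ1aJ2). Open circles are the 2 libraries left out, which lie under the dashed line at 5% Tg and have the highest muscle shares, 12.1 and 8.33%.

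Of 18634 genes tested, 411 (2.21%) had an interaction past the threshold, an adjusted p of at most 0.05 in edgeR's quasi-likelihood test. The interaction was positive for 150 of them (0.805%) and negative for 261 (1.4%), and for 223 it was at least 2-fold. Over all 18634 genes, past the threshold or not, it was negative in 9507 and positive in 9127. In the same fit, 194 genes (1.04%) differed between aJ1aJ2 and RW at 15 hours, 108 higher (0.58%) and 86 lower (0.462%). At 5 days 611 genes (3.28%) differed, 267 higher (1.43%) and 344 lower (1.85%). With all 20 libraries 25 of 18519 genes (0.135%) kept an interaction past the threshold, 11 positive (0.0594%) and 14 negative (0.0756%). All 25 were among the 411, of which they were 6.08%, and 407 of the 408 genes tested in both fits kept their sign. The 20 libraries include the 18 by which the 411 were chosen, which favours agreement of sign. The biological coefficient of variation was 0.356 with 18 libraries and 0.489 with 20. The gene just inside the threshold was Tmie (interaction 1.01, edgeR adjusted p = 0.0498) and the one just outside was 2310040G07Rik (1.77, edgeR adjusted p = 0.0501).

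For 389 of the 411 genes the fold changes at the 2 times had opposite signs. The genes were chosen by the difference between these 2 fold changes, which favours opposite signs and the opposite medians given below. Of the 411, 244 were past the threshold in the 5-day comparison alone, 66 in the 15-hour comparison alone, 3 in both and 98 in neither. The positive genes had a median log2 fold change of −0.30 at 15 hours and 0.89 at 5 days, and the negative genes one of 0.26 at 15 hours and −0.55 at 5 days. An interaction can come from either group changing over time. Between 15 hours and 5 days RW moved more than aJ1aJ2 in 240 of the 411 genes (10738 of all 18634) and aJ1aJ2 moved more in 171. Across the positive genes the median log2 change over time was −0.69 in RW and 0.52 in aJ1aJ2, and across the negative genes it was 0.51 in RW and −0.38 in aJ1aJ2. These counts rest on few libraries, since leaving out any 1 of 13 of the 18 moved the interaction count by more than 1.5 times. The count fell to 34 without RW replicate 2 at 5 days and rose to 741 without aJ1aJ2 replicate 3 at 15 hours, the library with the lowest Tg share among treated libraries at that time.

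**Figure D2:**
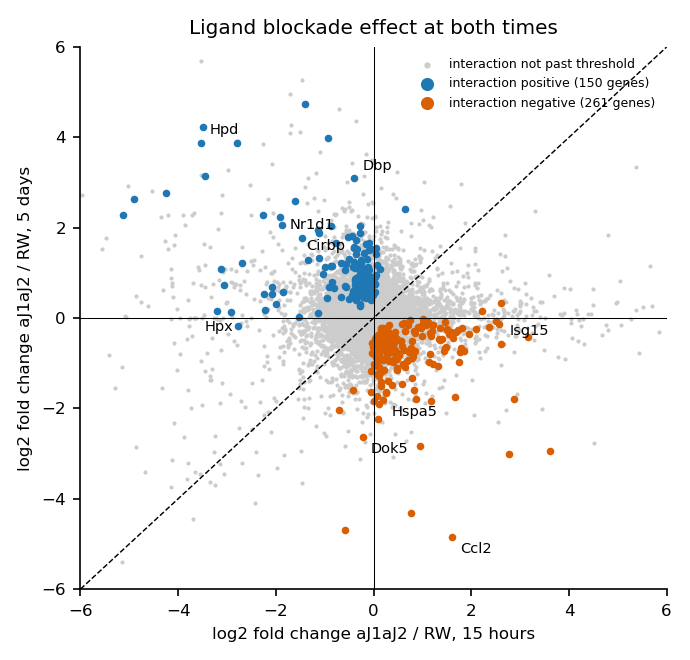
Log2 fold change of aJ1aJ2 over RW at 15 hours (x axis) against that at 5 days (y axis) for the genes tested with 18 libraries, with 31 genes beyond the axes, of which 0 were past the threshold. The 150 genes with a positive interaction (blue) lie above the dashed line of equal effects and the 261 with a negative one (orange) below it, mostly in the upper left and lower right quadrants.

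Notch target genes did not pass the interaction test. Of 8 readouts of the pathway, 7 were tested and 0 had an interaction past the threshold (2.21% of all genes had one). Hey1, a transcriptional repressor of the Hey family, was measured in RW at 15 hours at 8.39, 7.69, 10.1, 8.77 and 10.4 CPM (counts relative to the library size after TMM scaling). In aJ1aJ2 at 15 hours it was at 10.4, 7.91, 8.42, 9.23 and 9.92 CPM. The levels at 5 days were 7.30, 8.48, 10.0 and 7.58 CPM in RW and 5.69, 5.22, 5.85 and 3.95 CPM in aJ1aJ2. The groups overlapped at 15 hours and were apart at 5 days. Hey1 fell at 5 days (log2 fold change −0.69, SE 0.15, edgeR adjusted p = 0.0207) and differed by 0.02 (SE 0.13) at 15 hours, while its interaction was −0.71 (SE 0.20, edgeR adjusted p = 0.0705). Notch3, a receptor gene that is itself induced by Notch in mural cells, was lower in aJ1aJ2 at both times and passed the threshold at 15 hours alone. It fell at 15 hours from 39.8 ± 6.29 CPM in RW to 22.2 ± 5.38 CPM (SD, n = 5; log2 fold change −0.84, SE 0.16, edgeR adjusted p = 0.0138). By 5 days it was at 41.9 ± 1.01 CPM in RW and 28.6 ± 5.04 CPM in aJ1aJ2 (SD, n = 4; −0.55, edgeR adjusted p = 0.104), and its interaction was 0.29 (SE 0.24, edgeR adjusted p = 0.563). Its exons overlap Gm17276 on the other strand, so its counts are uncertain. The other interactions were −1.23 for Hey2 (edgeR adjusted p = 0.0584), −0.54 for Heyl, −0.43 for Hes1, −0.01 for Dtx1 and 2.02 for Nrarp, a feedback inhibitor of the pathway whose exons overlap Gm38287 (edgeR adjusted p = 0.109). Hes5 held 4 counts in the 18 libraries and was not tested. Of 8 Notch receptor and ligand genes 0 passed, with a median interaction of 0.13 beside −0.01 over all genes tested.

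Interferon-stimulated genes were higher after ligand blockade at 15 hours, and their summed level overlapped that of control at 5 days. These genes encode antiviral effectors and the sensors and transcription factors that induce them, and they are switched on together by type I interferon. Of 35 listed genes 28 rose at 15 hours (0.58% of all genes did) and 0 were past the threshold at 5 days (3.28%). The interaction was past the threshold and negative in 21 of 35 (60%, beside 1.4% of all genes), with a median of −1.58 beside −0.01 over all genes tested. Summed over the list, the level was 420 to 581 CPM in RW and 621 to 1444 CPM in aJ1aJ2 at 15 hours. At 5 days it was 457 to 607 CPM in RW and 465 to 632 CPM in aJ1aJ2. From 15 hours to 5 days the median member changed by −1.56 on the log2 scale in aJ1aJ2 and by 0.17 in RW. aJ1aJ2 moved more than RW in 32 of the 35 genes.

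Isg15 (ENSMUSG00000035692), a ubiquitin-like protein that is joined to other proteins in infected cells, was at 4.17, 1.72, 3.75, 2.16 and 3.11 CPM in RW at 15 hours. In aJ1aJ2 at 15 hours it was at 12.8, 21.1, 19.9, 8.08 and 29.2 CPM. In the 5-day libraries it was at 2.92, 4.91, 3.45 and 3.37 CPM in RW and at 3.80, 2.35, 1.74 and 2.03 CPM in aJ1aJ2. All 5 treated libraries were above all controls at 15 hours, and at 5 days the groups overlapped. The log2 fold change was 2.61 (SE 0.34, edgeR adjusted p = 0.00293) at 15 hours and −0.56 (SE 0.37, edgeR adjusted p = 0.465) at 5 days. The interaction was −3.17 (SE 0.50, edgeR adjusted p = 0.00899). Bst2, which tethers budding viruses to the cell surface, was at 22.6, 11.8, 16.7, 14.4 and 14.8 CPM in RW and at 38.2, 62.0, 46.3, 27.4 and 93.9 CPM in aJ1aJ2 at 15 hours. At 5 days RW was at 13.6, 13.9, 14.9 and 12.3 CPM and aJ1aJ2 at 14.5, 11.8, 10.5 and 8.87 CPM. Its treated libraries were likewise all above control at 15 hours and not at 5 days, with an interaction of −2.0 (SE 0.39, edgeR adjusted p = 0.0244). Ifi44, an interferon-induced gene, rose at 15 hours from 5.82 ± 1.37 to 22.5 ± 10.4 CPM (SD, n = 5) and had an interaction of −2.30 (SE 0.39, edgeR adjusted p = 0.0154). Ifih1, the sensor of double-stranded RNA also called MDA5, rose from 22.8 ± 2.60 to 35.7 ± 7.17 CPM and had an interaction of −0.93 (SE 0.18, edgeR adjusted p = 0.0244).

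The promoters of Isg15 and Bst2 are shown because most of the list rose together and because both hold the element through which interferon-activated transcription factors bind. The 250 bases before the start of each gene, from RefSeq on GRCm38.p6 and written 5′ to 3′ on the strand of the gene, are chr4:156200819-156201068 (minus strand) for Isg15 and chr8:71537473-71537722 (minus strand) for Bst2. Capitals mark matches to the interferon-stimulated response element, searched on both strands as GAAA, any 2 bases and GAAA. Isg15 has 3 matches that overlap each other and Bst2 has 2 that overlap.
Isg15: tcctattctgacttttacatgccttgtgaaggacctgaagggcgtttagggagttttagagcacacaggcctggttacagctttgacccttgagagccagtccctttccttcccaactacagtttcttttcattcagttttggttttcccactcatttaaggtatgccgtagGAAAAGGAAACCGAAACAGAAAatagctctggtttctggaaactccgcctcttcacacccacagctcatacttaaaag
Bst2: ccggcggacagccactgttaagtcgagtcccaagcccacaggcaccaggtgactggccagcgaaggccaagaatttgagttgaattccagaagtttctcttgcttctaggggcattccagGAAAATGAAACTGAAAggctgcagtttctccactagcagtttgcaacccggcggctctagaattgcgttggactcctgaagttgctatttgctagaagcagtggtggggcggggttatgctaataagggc
The motif was found in 2.98% of 32851 such windows over all genes, and 936 of the 27025 genes with a window (3.46%) held it. A window was given for 25 of the 35 listed genes, and 13 of these 25 (52%) held it. A match describes the letters and is no measure of binding.

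Ccl2, Ccl7 and Ccl12, neighbouring chemokine genes whose products draw monocytes into tissue, had the largest negative interactions among the 24 genes named by p-value. Ccl2 was at 0.632, 1.72, 0.856, 0.352 and 1.68 CPM in RW at 15 hours and at 3.26, 2.82, 3.52, 2.10 and 4.03 CPM in aJ1aJ2. At 5 days it was at 5.39, 20.6, 1.20 and 13.5 CPM in RW and at 0.435, 0.168, 0.366 and 0.439 CPM in aJ1aJ2. Treated libraries were thus all above control at 15 hours and, among the kept libraries, all below it at 5 days. At 5 days the control libraries spread widely, from 1.20 to 20.6 CPM, and the treated ones held 46 counts in all. The interaction of Ccl2 was −6.44 (SE 0.92, edgeR adjusted p = 0.00562), with log2 fold changes of 1.60 (edgeR adjusted p = 0.258) at 15 hours and −4.84 (edgeR adjusted p = 0.00429) at 5 days. Ccl12 rose at 15 hours from 0.418 ± 0.168 to 3.08 ± 1.40 CPM (SD, n = 5; log2 fold change 2.87) and fell at 5 days from 1.28 ± 0.557 to 0.370 ± 0.103 CPM (SD, n = 4; −1.78). Its interaction was −4.65 (SE 0.60, edgeR adjusted p = 0.00400). For Ccl7 the log2 fold changes were 2.77 and −3.02 and the interaction −5.79 (SE 0.91, edgeR adjusted p = 0.00901). Ccl12 and Ccl7 were past the threshold at both times, with opposite signs. The RW library left out had 3.00 CPM of Ccl2, within the range of the kept ones. The Ccl2 interaction was −5.49 with all 20 libraries. In the fit of all 20 libraries the 3 chemokines and Isg15 stayed past the threshold, at edgeR adjusted p of 0.0310 (Ccl2), 0.0279 (Ccl7), 0.0134 (Ccl12) and 0.0279 (Isg15), while Ifi44 missed it (edgeR adjusted p = 0.0862).

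**Figure D3:**
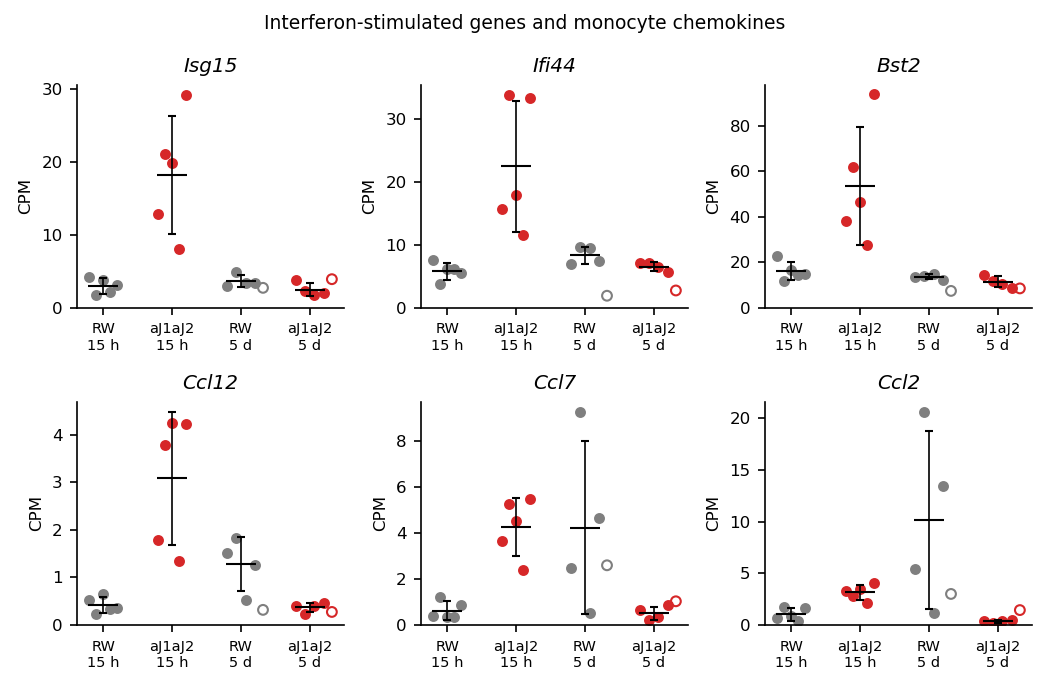
CPM of 3 interferon-stimulated genes (top) and 3 chemokines (bottom) by group (grey RW, red aJ1aJ2). Points are libraries, bars the mean ± SD of the filled points, and open circles the 2 libraries left out. Isg15 in aJ1aJ2 is at 8.08 to 29.2 CPM at 15 hours and at 1.74 to 3.80 CPM at 5 days, and Ccl2 in RW spreads from 1.20 to 20.6 CPM at 5 days.

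The summed level of 7 macrophage markers was 153 to 269 CPM in RW and 201 to 281 CPM in aJ1aJ2 at 15 hours, and 171 to 193 and 135 to 226 CPM at 5 days. By edgeR 0 of the 7 had an interaction past the threshold, and their part in the result was not tested. The interferon count was 1 with all 20 libraries. Without any 1 library it lay between 2 and 24: it was 2 without RW replicate 2 at 15 hours, RW replicate 2 at 5 days or aJ1aJ2 replicate 2, 4 or 5 at 5 days, and 7 to 11 without replicate 4 or 5 of RW or replicate 5 of aJ1aJ2 at 15 hours or RW replicate 1 or 5 at 5 days. It was 5 without the 3 muscle-rich libraries at 15 hours.

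Among acute-phase and neutrophil genes, Lcn2, an iron-binding protein of neutrophils and inflamed epithelia, had the only interaction past the threshold, 1 of 13 tested (7.69%, beside 2.21% of all genes). It was at 1.44, 2.36, 1.32, 1.83 and 1.68 CPM in RW and at 4.72, 4.77, 15.6, 4.70 and 19.1 CPM in aJ1aJ2 at 15 hours. The levels at 5 days were 1.17 ± 0.373 CPM in RW and 1.13 ± 0.411 CPM in aJ1aJ2 (SD, n = 4). Lcn2 rose at 15 hours (log2 fold change 2.50, SE 0.42, edgeR adjusted p = 0.00611) and its interaction was −2.56 (SE 0.62, edgeR adjusted p = 0.0465). It passed in 5 of the 18 fits that left out 1 library. The aJ1aJ2 library left out had 98.7 CPM at 5 days, and with all 20 libraries the interaction turned to 1.20 (edgeR adjusted p = 0.889). Over the whole list 9 interactions were negative and 4 positive. The list median was −1.12, and it turned to 1.20 with all 20 libraries. Summed over the list, the level at 15 hours was 105 to 10374 CPM in RW and 341 to 570 CPM in aJ1aJ2.

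Chaperones of the endoplasmic reticulum, which fold and quality-check secreted proteins, were lower after ligand blockade at 5 days and their summed level overlapped that of control at 15 hours. Of 17 listed genes 14 fell at 5 days (1.85% of all genes did) and 0 were past the threshold at 15 hours (1.04%). The interaction was negative in all 17 and past the threshold in 8 (47.1%, beside 1.4% of all genes), with a median of −1.57. Summed over the list, the level at 15 hours was 6592 to 13899 CPM in RW and 5078 to 13765 CPM in aJ1aJ2. At 5 days it was 14111 to 23152 CPM in RW and 5746 to 6681 CPM in aJ1aJ2, with no overlap. From 15 hours to 5 days the median member changed by 0.74 on the log2 scale in RW and by −0.92 in aJ1aJ2.

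Hspa5 (ENSMUSG00000026864) encodes BiP, the chaperone that binds unfolded proteins in the lumen and holds the stress sensors inactive. It was at 3064, 1106, 2596, 2404 and 1321 CPM in RW and at 2983, 2025, 974, 3026 and 2986 CPM in aJ1aJ2 at 15 hours. By 5 days it was at 3997, 6112, 3051 and 4217 CPM in RW and at 1451, 1172, 1143 and 1209 CPM in aJ1aJ2. The groups overlapped at 15 hours, where RW replicates 2 and 5 and aJ1aJ2 replicate 3 were the lowest. These 3 libraries had the most muscle counts and the lowest Tg shares at that time. At 5 days every kept treated library was below every kept control. The log2 fold change was 0.19 (SE 0.32, edgeR adjusted p = 0.915) at 15 hours and −1.80 (SE 0.37, edgeR adjusted p = 0.0150) at 5 days, and the interaction was −2.0 (SE 0.48, edgeR adjusted p = 0.0448). Hsp90b1, also called GRP94, was at 2594, 3553, 2155 and 2549 CPM in RW and at 807, 845, 723 and 908 CPM in aJ1aJ2 at 5 days. Its interaction was −1.79 (SE 0.40, edgeR adjusted p = 0.0332), and its exons overlap 1810014B01Rik, so its counts are uncertain. Dnajb11, a cochaperone of BiP, fell at 5 days from 258 ± 48.7 to 96.7 ± 7.04 CPM (SD, n = 4) with an interaction of −1.57 (SE 0.35, edgeR adjusted p = 0.0351). Sel1l, a subunit of the machinery that exports misfolded proteins for degradation, fell from 487 ± 102 to 229 ± 16.1 CPM with an interaction of −1.21 (SE 0.26, edgeR adjusted p = 0.0323).

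The promoters of Hspa5 and Hsp90b1 hold the endoplasmic reticulum stress element, through which the unfolded protein response induces chaperones, and are shown for that reason. They are chr2:34771840-34772089 (plus strand) for Hspa5 and chr10:86705445-86705694 (minus strand) for Hsp90b1, again the 250 bases before the start in RefSeq on GRCm38.p6. Capitals mark matches to CCAAT, any 9 bases and CCACG, searched on both strands. Hspa5 has 1 match and Hsp90b1 has 2 that do not overlap, the second on the other strand.
Hspa5: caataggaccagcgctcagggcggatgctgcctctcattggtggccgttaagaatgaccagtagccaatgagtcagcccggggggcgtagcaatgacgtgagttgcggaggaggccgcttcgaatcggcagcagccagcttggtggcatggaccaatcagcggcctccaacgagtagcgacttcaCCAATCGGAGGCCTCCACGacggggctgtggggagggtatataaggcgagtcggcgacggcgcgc
Hsp90b1: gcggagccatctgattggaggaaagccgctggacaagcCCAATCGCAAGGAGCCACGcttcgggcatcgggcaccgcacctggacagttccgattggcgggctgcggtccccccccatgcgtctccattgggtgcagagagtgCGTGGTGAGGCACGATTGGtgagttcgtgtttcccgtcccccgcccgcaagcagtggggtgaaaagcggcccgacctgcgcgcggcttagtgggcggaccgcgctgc
The element was found in 0.113% of the 32851 windows. By gene, it was found in 7 of the 15 listed chaperone genes with a window (46.7%), beside 0.13% of all 27025 genes with a window.

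The chaperone count was 0 with all 20 libraries, and both libraries left out were low, with 498 CPM of Hspa5 in RW and 291 CPM in aJ1aJ2. That RW library lay below every kept aJ1aJ2 library at 5 days, so the separation of Hspa5 holds for the kept libraries only. The chaperone result thus also depends on the choice of libraries by Tg share, and the part of that share in it was not tested. The count was also 0 without any 1 of RW replicates 2 and 4 and aJ1aJ2 replicate 1 at 15 hours, or RW replicates 1, 2 and 5 and aJ1aJ2 replicates 2, 4 and 5 at 5 days. Without replicate 3 or 5 of RW or replicate 2, 4 or 5 of aJ1aJ2 at 15 hours it was 1 to 5. It was 15 of 17 without aJ1aJ2 replicate 3 at 15 hours, and 15 without all 3 muscle-rich libraries. A list of the integrated stress response, a separate branch of the response to protein stress, had 1 of 13 genes past the threshold (7.69%, beside 2.21% of all genes). That gene was Asns, which makes asparagine, at 40.0 ± 8.80 CPM in RW and 25.6 ± 2.72 CPM in aJ1aJ2 at 5 days (SD, n = 4), with an interaction of −0.93 (SE 0.23, edgeR adjusted p = 0.0490), and it passed in 5 of the 18 fits that left out 1 library.

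Of 17 collagen genes 7 were past the threshold and lower in treated glands at 5 days (1.85% of all genes were) and 0 at 15 hours (0.462%). The median log2 fold change of the list was already −0.42 at 15 hours and was −0.72 at 5 days. All 17 had negative interactions (median −0.44 beside −0.01 over all genes tested), of which 2 (11.8%, beside 1.4% of all genes) were past the threshold. The summed level was 1783 to 2150 CPM in RW and 1266 to 2020 CPM in aJ1aJ2 at 15 hours, and 2154 to 2355 and 1065 to 1590 CPM at 5 days. Col6a3, a chain of the microfibrillar collagen VI, was at 67.8, 81.9, 69.6, 68.1 and 97.3 CPM in RW and at 65.5, 58.7, 51.5, 74.0 and 36.5 CPM in aJ1aJ2 at 15 hours. In the 5-day libraries it was at 98.6, 94.8, 110 and 92.9 CPM in RW and at 31.4, 28.2, 35.6 and 36.6 CPM in aJ1aJ2. The groups overlapped at 15 hours and were far apart at 5 days (log2 fold change −1.59, SE 0.18, edgeR adjusted p = 0.000690), and the interaction was −1.16 (SE 0.23, edgeR adjusted p = 0.0265). Col3a1, a fibrillar collagen of soft tissue whose exons overlap Gm47302, fell at 5 days from 304 ± 73.1 to 73.7 ± 18.4 CPM (SD, n = 4) with an interaction of −1.33 (SE 0.33, edgeR adjusted p = 0.0477). At 15 hours it was at 301 ± 75.0 CPM in RW and 183 ± 45.9 CPM in aJ1aJ2, already without overlap (−0.72, edgeR adjusted p = 0.177).

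Enzymes and chaperones that fold and cross-link collagen gave 2 of 23 genes past the threshold (8.70%, beside 1.4% of all genes), both negative, with a list median of −0.19. Serpinh1 encodes HSP47, the collagen-specific chaperone of the endoplasmic reticulum. It was at 121, 117, 99.5, 89.7 and 122 CPM in RW and at 118, 105, 77.5, 127 and 104 CPM in aJ1aJ2 at 15 hours. At 5 days it was at 162, 144, 125 and 151 CPM in RW and at 82.0, 56.2, 67.0 and 54.5 CPM in aJ1aJ2. The groups overlapped at 15 hours only, and the interaction was −1.12 (SE 0.21, edgeR adjusted p = 0.0219). P4ha1, a subunit of the enzyme that hydroxylates prolines of collagen, was at 79.1 ± 12.9 CPM in RW and 42.3 ± 5.76 CPM in aJ1aJ2 at 5 days, with an interaction of −1.03 (SE 0.19, edgeR adjusted p = 0.0172). Of 19 other matrix genes 1 (5.26%, beside 1.4% of all genes) passed: Timp1, an inhibitor of matrix proteases, with an interaction of −1.86 (SE 0.47, edgeR adjusted p = 0.0490, past the threshold in 4 of the 18 fits without 1 library). Fibroblast markers had summed levels of 488 to 792 CPM in RW and 473 to 648 CPM in aJ1aJ2 at 5 days and 0 of 5 past the threshold. With all 20 libraries 0 collagens, 1 folding gene (Serpinh1, edgeR adjusted p = 0.0348) and 0 other matrix genes passed. Leaving out 1 library gave 0 to 2 collagens, 0 without RW replicate 2 at 15 hours or replicate 1 or 2 of RW or replicate 2, 4 or 5 of aJ1aJ2 at 5 days. Of the folding genes 0 passed without RW replicate 2 at 5 days, 1 without aJ1aJ2 replicate 2, 4 or 5 at 5 days and 5 without aJ1aJ2 replicate 3 at 15 hours.

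**Figure D4:**
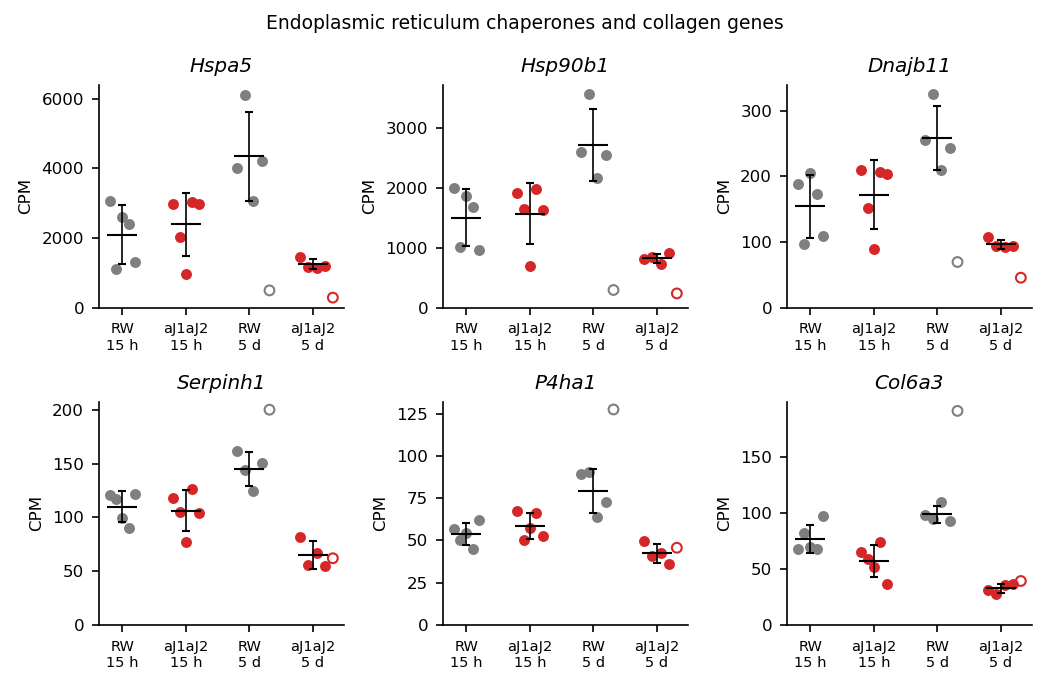
CPM of 3 chaperones of the endoplasmic reticulum (top) and of Serpinh1, P4ha1 and Col6a3 (bottom) by group (grey RW, red aJ1aJ2). Points are libraries, bars the mean ± SD of the filled points, and open circles the 2 libraries left out. At 5 days the kept aJ1aJ2 libraries lie below all kept RW libraries in each panel, for Hspa5 at 1143 to 1451 against 3051 to 6112 CPM.

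Genes of the circadian clock, the transcriptional feedback loop that keeps daily time in nearly every cell, had positive interactions where they passed the test. Of 18 listed genes 5 were past the threshold (27.8%, beside 0.805% of all genes), all positive, while 6 others had negative values, and 5 rose at 5 days (1.43%). The list median was 0.64. Nr1d1 (ENSMUSG00000020889) encodes the nuclear receptor REV-ERBα, which represses the activators of the loop, and had the smallest p-value of the positive genes. It was at 98.6, 145, 133, 149 and 175 CPM in RW and at 70.5, 93.1, 99.2, 156 and 65.6 CPM in aJ1aJ2 at 15 hours. The levels at 5 days were 47.1, 44.8, 55.7 and 47.4 CPM in RW and 153, 201, 156 and 166 CPM in aJ1aJ2. Control libraries were thus low at 5 days, and treated ones were above all of them. Its interaction was 2.32 (SE 0.30, edgeR adjusted p = 0.00400), with log2 fold changes of −0.53 (SE 0.20, edgeR adjusted p = 0.302) at 15 hours and 1.79 (SE 0.23, edgeR adjusted p = 0.00159) at 5 days. Over time the log2 level changed by −1.52 in RW and by 0.80 in aJ1aJ2. Since the labels do not give the hour of day at collection, time after injection and hour of day cannot be told apart for the clock genes. Exons of Nr1d1 overlap Thra, the thyroid hormone receptor gene on the other strand, so reads of the pair may be mixed.

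The related receptor Nr1d2 was at 21.0, 22.3, 22.4 and 34.2 CPM in RW and at 67.6, 52.6, 46.8 and 48.6 CPM in aJ1aJ2 at 5 days, with an interaction of 1.5 (SE 0.24, edgeR adjusted p = 0.0115). Dbp, a transcription factor driven directly by the clock, was at 1.46, 1.30, 2.10 and 0.976 CPM in RW and at 28.4, 6.76, 7.79 and 7.19 CPM in aJ1aJ2 at 5 days. At 15 hours it was at 5.00 ± 1.69 CPM in RW and 3.80 ± 1.41 CPM in aJ1aJ2 (SD, n = 5). Its treated libraries at 5 days were all above control, aJ1aJ2 replicate 1 far more than the rest, and the interaction was 3.49 (SE 0.62, edgeR adjusted p = 0.0167). Cry2, a repressor of the loop, had an interaction of 1.22 (SE 0.26, edgeR adjusted p = 0.0313). Dbp shares exon sequence with Sphk2 and Cry2 with D930015M05Rik, each on the other strand, and both are uncertain for that reason. The fifth gene was Per3, a period protein named after its values were seen, with an interaction of 1.95 (SE 0.44, edgeR adjusted p = 0.0362). Arntl, the activator BMAL1, also named after its values were seen and overlapped by Gm45355, lay on the other side at 59.5 ± 7.31 CPM in RW and 32.5 ± 13.0 CPM in aJ1aJ2 at 5 days, but its interaction of −0.80 missed the threshold (edgeR adjusted p = 0.175). The E-box CACGTG, through which the clock activators bind, reads the same on both strands and was found in 6.02% of the promoter windows. By gene, it was found in 5 of the 15 clock genes with a window (33.3%), beside 6.86% of all genes with a window. None of these 5 was among the 5 past the threshold.

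The clock count was 0 with all 20 libraries, and the RW library left out had 198 CPM of Nr1d1 and 75.2 CPM of Nr1d2, above all kept controls at 5 days. In that fit Nr1d1 had an interaction of 1.58 (edgeR adjusted p = 0.216) and Nr1d2 one of 1.07 (edgeR adjusted p = 0.302). The count was 2 without RW replicate 2 at 5 days, and 3 without any 1 of RW replicate 2 and aJ1aJ2 replicates 1 and 5 at 15 hours, or RW replicates 1 and 5 and aJ1aJ2 replicates 2, 4 and 5 at 5 days.

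Cirbp, an RNA-binding protein induced by mild cooling, also had RW at 5 days as its low group. It was at 68.1, 70.3, 76.0, 78.4 and 57.0 CPM in RW and at 59.3, 68.9, 40.6, 53.7 and 69.2 CPM in aJ1aJ2 at 15 hours. By 5 days it was at 26.2, 22.2, 43.0 and 29.4 CPM in RW and at 52.0, 77.2, 81.0 and 72.4 CPM in aJ1aJ2. The groups did not overlap at 5 days, and the interaction was 1.49 (SE 0.27, edgeR adjusted p = 0.0172, and 0.0369 with all 20 libraries). In the list of 17 cold-shock and heat-shock genes Cirbp was the 1 positive gene past the threshold and 3 were negative (4 of 17, 23.5%, beside 2.21% of all genes). These 3 were Stip1, a cochaperone that links HSP70 to HSP90 (−0.77, edgeR adjusted p = 0.0189), Dnaja1, a cochaperone of HSP70 whose exons overlap Smu1 (−1.19, edgeR adjusted p = 0.0265), and Hspa4l, an HSP70-related chaperone (−0.99, edgeR adjusted p = 0.0313). The list median was −0.64, and 16 of the 17 interactions were negative, all but that of Cirbp. Rbm3, another cold-shock gene of the list, was named after its values were seen and is overlapped by Rbm3os. Between 15 hours and 5 days its log2 level changed by 1.09 in RW and by 0.02 in aJ1aJ2, so its interaction was negative, opposite to Cirbp, and missed the threshold (edgeR adjusted p = 0.107). The list count was 1 with all 20 libraries, 0 without RW replicate 2 at 5 days and 7 without aJ1aJ2 replicate 1 at 5 days. It was 1 or 2 without RW replicate 2 at 15 hours or RW replicate 1 or aJ1aJ2 replicate 2, 4 or 5 at 5 days.

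**Figure D5:**
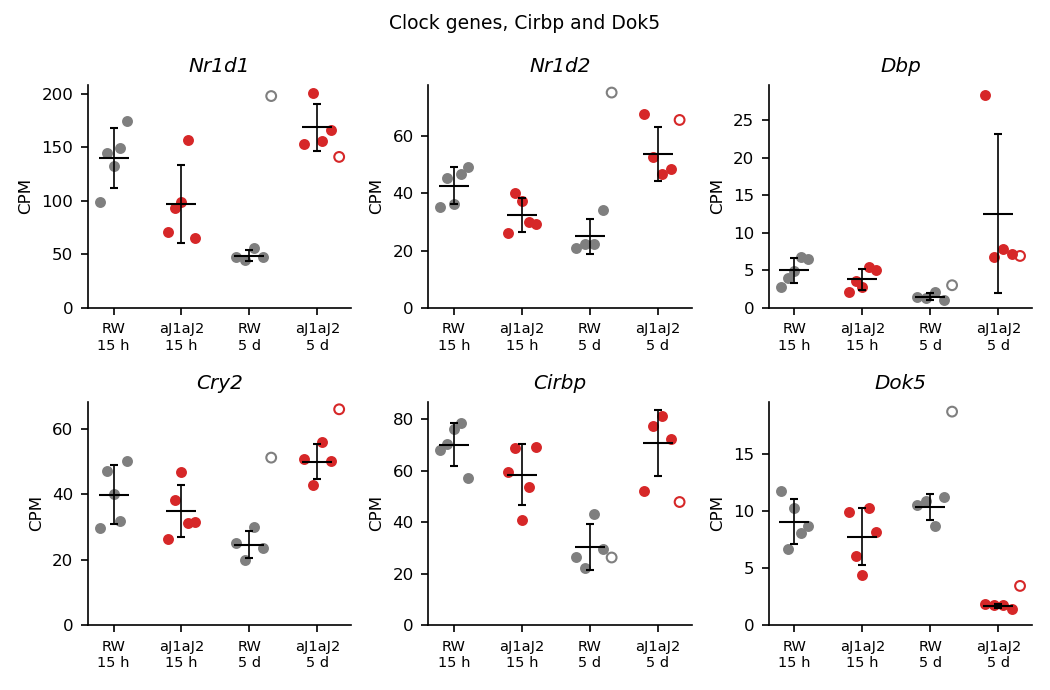
CPM of 4 clock genes, Cirbp and Dok5 by group (grey RW, red aJ1aJ2). Points are libraries, bars the mean ± SD of the filled points, and open circles the 2 libraries left out. RW at 5 days is the low group for the clock genes and Cirbp, at 44.8 to 55.7 CPM for Nr1d1, and aJ1aJ2 at 5 days is the low group for Dok5, at 1.40 to 1.82 CPM.

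Beyond these lists, the smallest p-values among negative genes belonged to genes of several roles. Tm4sf1 (ENSMUSG00000027800), a membrane protein of endothelial cells, had the smallest of all. It was at 45.1, 39.8, 47.7, 41.7 and 39.5 CPM in RW and at 47.4, 55.4, 53, 54.8 and 55.4 CPM in aJ1aJ2 at 15 hours. In the 5-day libraries it was at 49.7, 50.2, 55.1 and 49.4 CPM in RW and at 32.1, 31.7, 33.5 and 26.7 CPM in aJ1aJ2. Treated libraries were mostly higher at 15 hours and all lower at 5 days, and the interaction was −1.04 (SE 0.12, edgeR adjusted p = 0.00209). With all 20 libraries it was −0.84 and missed the threshold (edgeR adjusted p = 0.0567). Endothelial markers summed to 517 to 864 CPM in RW and 506 to 780 CPM in aJ1aJ2 at 15 hours. At 5 days the sums were 902 to 986 CPM in RW and 602 to 922 CPM in aJ1aJ2, with 0 of 6 markers past the threshold, and their part in the Tm4sf1 result was not tested.

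Dok5 (ENSMUSG00000027560), an adaptor of receptor tyrosine kinases, was at 11.8, 6.69, 10.2, 8.04 and 8.69 CPM in RW and at 9.94, 6.03, 4.43, 10.3 and 8.16 CPM in aJ1aJ2 at 15 hours. By 5 days it was at 10.6, 10.9, 8.70 and 11.2 CPM in RW and at 1.82, 1.76, 1.74 and 1.40 CPM in aJ1aJ2. The treated group at 5 days was low and narrow, and the interaction was −2.40 (SE 0.31, edgeR adjusted p = 0.00400). Shisal1 fell at 5 days from 7.05 ± 2.13 to 2.55 ± 0.511 CPM (SD, n = 4) with an interaction of −2.04 (SE 0.29, edgeR adjusted p = 0.00562). Sh3pxd2b, a scaffold of podosomes, had an interaction of −1.04. Hdlbp, the RNA-binding protein vigilin, was at 974 ± 123 CPM in RW and 572 ± 31.0 CPM in aJ1aJ2 at 5 days against 571 ± 43.5 and 612 ± 15.2 CPM at 15 hours, so that RW at 5 days was the high group (interaction −0.87). Ascc3, a helicase (−0.87), and Ccdc25 (−0.92) had the same order of groups. With all 20 libraries Shisal1 (edgeR adjusted p = 0.162) and Hdlbp (edgeR adjusted p = 0.0931) missed the threshold, and Dok5, Sh3pxd2b, Ascc3 and Ccdc25 kept their calls.

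Among positive genes, Ypel3 was at 72.2 ± 4.47 CPM in RW and 69.5 ± 4.08 CPM in aJ1aJ2 at 15 hours (SD, n = 5). The levels at 5 days were 42.8 ± 2.75 and 76.1 ± 11.0 CPM (SD, n = 4), and its interaction was 0.89 (SE 0.13, edgeR adjusted p = 0.00562). Ppargc1a encodes PGC-1α, a coactivator of mitochondrial genes. It was at 47.5, 24.2, 49.3 and 31.1 CPM in RW and at 78.6, 122, 89.5 and 87.9 CPM in aJ1aJ2 at 5 days, all treated libraries above control. At 15 hours it was at 67.9 ± 4.38 CPM in RW and 47.6 ± 12.8 CPM in aJ1aJ2, and the interaction was 1.82 (SE 0.30, edgeR adjusted p = 0.0115). Of 35 nuclear genes of respiratory complex I 0 had an interaction past the threshold. Their median interaction was 0.21, and it turned to −0.40 with all 20 libraries. Flcn, folliculin, a regulator of nutrient signalling at the lysosome, had an interaction of 1.13 (SE 0.17), and Traf1, an adaptor of tumour necrosis factor receptors, one of 1.58 (SE 0.27). Traf1 was at 18.1 to 32.4 CPM in aJ1aJ2 at 5 days against 6.96 to 13.0 CPM in the 14 other libraries. Cyp2d22, a cytochrome P450 whose counts may share reads with its family (0.91), Miip (0.70) and Grap, an adaptor overlapped by Slc5a10 (1.28), were the others. Cd209c, a lectin gene of a family with close copies, gave 3.01 on low counts, 37 in RW and 140 in aJ1aJ2 at 5 days. With all 20 libraries Cyp2d22 and Miip kept their calls. The others missed the threshold, at edgeR adjusted p of 0.0743 (Ypel3), 0.243 (Ppargc1a), 0.332 (Flcn), 0.311 (Traf1), 0.0763 (Grap) and 0.0597 (Cd209c).

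Genes of proteins secreted by the liver formed a separate positive group whose differences lay in the 15-hour comparison. Of 17 tested genes 14 fell in aJ1aJ2 at 15 hours (0.462% of all genes did) and 0 were past the threshold at 5 days. All 17 had positive interactions (median 3.59), 5 of them past the threshold (29.4%, beside 0.805%). The summed level was 90.6 to 386 CPM in RW and 23.2 to 39.7 CPM in aJ1aJ2 at 15 hours, and 14.4 to 27.4 and 13.5 to 18.7 CPM at 5 days. RW at 15 hours was thus the high group, and both groups were low at 5 days. Ahsg, fetuin-A, was at 23.2, 20.1, 5.86, 17.7 and 4.95 CPM in RW and at 1.47, 1.26, 2.06, 1.73 and 2.11 CPM in aJ1aJ2 at 15 hours. By 5 days it was at 0.514, 0.722, 0.188 and 0.474 CPM in RW and at 0.514, 0.503, 1.10 and 1.02 CPM in aJ1aJ2. The groups were apart at 15 hours and overlapped at 5 days, and the interaction was 3.79 (SE 0.66, edgeR adjusted p = 0.0160); exons of Ahsg overlap Gm30505. Hpx, which carries haem in plasma, had 3.37 (SE 0.59, edgeR adjusted p = 0.0160), the apolipoprotein gene Apoa2 2.61 (SE 0.54, edgeR adjusted p = 0.0309) and the thyroxine carrier gene Ttr 2.78 (SE 0.59, edgeR adjusted p = 0.0313). The fifth was Apob, named after its values were seen, with 13 counts in aJ1aJ2 and 1 in RW at 5 days. That is a ratio of 12.9 (95% interval 1.93 to 547). The interval pools the libraries of a group, so it holds counting error alone and not the spread between libraries.

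Hpd and Tat, tyrosine-degrading liver enzymes that are on no list, were also highest in RW at 15 hours. Unlike the listed genes in sum, both had higher levels in aJ1aJ2 at 5 days than at 15 hours (log2 change 1.03 for Hpd and 1.06 for Tat) and lower ones in RW (−6.38 and −2.86). Hpd was at 2.82, 1.52, 0.823, 1.89 and 0.603 CPM in RW and at 0.107, 0.0324, 0.0859, 0.271 and 0.141 CPM in aJ1aJ2 at 15 hours. At 5 days it held 34 counts in aJ1aJ2 and 2 in RW, a ratio of 16.8 (95% interval 4.32 to 145, again counting error alone). Its interaction was 7.42 (SE 1.03, edgeR adjusted p = 0.00562), of which the size depends on the low counts. Tat had an interaction of 3.92 (SE 0.67, edgeR adjusted p = 0.0150, and 0.0763 with all 20 libraries). The liver count was 2 with all 20 libraries and 1 without RW replicate 2 at 5 days. It was 2 or 3 without any 1 of RW replicates 2 and 4 and aJ1aJ2 replicate 1 at 15 hours, or RW replicates 1 and 5 and aJ1aJ2 replicates 2, 4 and 5 at 5 days.

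Thyroid function genes are given as values because Tg chose the libraries. Tg itself took 22.8, 14.5 and 25.9 to 33.2% of counts in RW and 14.5 and 29.5 to 34.9% in aJ1aJ2 at 15 hours. At 5 days it took 34.0 to 40.3% in RW and 24.7 and 38.0 to 42.4% in aJ1aJ2. Tshr, the thyrotropin receptor, was at 163, 185, 156 and 119 CPM in RW and at 71.0, 84.4, 80.0 and 58.7 CPM in aJ1aJ2 at 5 days, without overlap. At 15 hours it was at 118 ± 71.0 CPM in RW and 126 ± 60.9 CPM in aJ1aJ2 (SD, n = 5), lowest in the muscle-rich libraries. Duox2, an oxidase that makes hydrogen peroxide for iodination, was at 59.2 ± 2.32 CPM in RW and 38.0 ± 5.10 CPM in aJ1aJ2 at 5 days (SD, n = 4), and at 33.6 to 75.5 CPM in RW and 30.7 to 65.4 CPM in aJ1aJ2 at 15 hours. Slc5a5, the iodide transporter, was at 121 ± 24.7 CPM in RW and 65.9 ± 46.1 CPM in aJ1aJ2 at 5 days, with overlap. The difference between the fold changes was negative for 14 of the 16 listed genes, beside 9507 of all 18634 genes tested. It was near 0 for the transcription factors Pax8 (−0.05) and Foxe1 (−0.05) and positive for Nkx2-1 (0.16), another factor of the lineage, and Duox1 (0.12), an oxidase.

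Several lists had 0 genes past the threshold, beside 2.21% of all genes, but lay to one side. All 18 cholesterol synthesis genes tested had negative interactions (median −0.72), with Cyp51 at −1.35 (edgeR adjusted p = 0.0635; overlapped by Akap9) and Msmo1 at −1.24 (edgeR adjusted p = 0.0795). Of 14 immediate early genes 3 fell at 5 days (1.85% of all genes did). Egr2, a growth-factor-induced transcription factor, was at 7.02 ± 3.69 CPM in RW and 1.25 ± 0.344 CPM in aJ1aJ2 at that time (SD, n = 4), with an interaction of −1.97 (edgeR adjusted p = 0.0928), and Atf3 had −2.64 (edgeR adjusted p = 0.0928). Of 7 pericyte genes 2 fell at 15 hours (0.462% of all genes did). Ndufa4l2 fell from 6.45 ± 2.04 to 1.91 ± 0.469 CPM (SD, n = 5; log2 fold change −1.75, edgeR adjusted p = 0.00293) and had an interaction of 1.15 (edgeR adjusted p = 0.0988; overlapped by Shmt2), and Kcnj8 had one of 0.94 (edgeR adjusted p = 0.0837). The lists for glucocorticoid response, cell cycle, antigen presentation, mitochondrially encoded genes, skeletal muscle, fat, parathyroid, C cells, B cells, smooth muscle, Schwann cells and cartilage also had 0. Some of these lay to one side as well. All 9 skeletal muscle genes had positive interactions (median 1.32), and the median turned to −0.41 with all 20 libraries. All 4 Schwann cell genes had negative ones (median −0.41), and that median turned to 0.08.

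Some lists for other tissues varied between single libraries. Airway genes summed to 9.17 to 6347 CPM in RW at 15 hours and to at most 92.1 CPM in the kept libraries of the other groups. Their 1 gene past the threshold, the basal-cell keratin Krt5 (interaction 7.55, SE 1.71, edgeR adjusted p = 0.0365; overlapped by Gm44323), was at 182 CPM in RW replicate 3 at 15 hours and at most 24.5 CPM elsewhere. It passed in 9 of the 18 fits that left out 1 library. T cell and thymus genes summed to 1.68 to 36.1 CPM in aJ1aJ2 and 1.62 to 2.59 CPM in RW at 5 days. At 15 hours the order of the highest libraries was the other way, with sums of 1.97 to 43.5 CPM in RW and 1.46 to 18.9 CPM in aJ1aJ2. The median interaction was 4.73, with 0 of 7 past the threshold. Haemoglobin and haem synthesis genes summed to 165 to 641 CPM in aJ1aJ2 and 60.5 to 125 CPM in RW at 5 days. At 15 hours they summed to 62.9 to 121 CPM in aJ1aJ2 and 66.2 to 512 CPM in RW. Hba-a1, which has a near-identical copy and is uncertain, had an interaction of 3.07 (edgeR adjusted p = 0.0675).

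The 10 libraries of RW and aJ1aJ2 at 7 days in the first of 2 sets (5 each, with the same doses) do not enter the interaction and show the same genes at a later time. By edgeR 0 of 16954 genes (0%) differed there (lowest adjusted p 0.0655, with 1968 genes at p under 0.05 before adjustment), while DESeq2 called 417. Of the 411 interaction genes 391 were tested at 7 days, and 239 (61.1%) had the sign of their 5-day fold change, beside 53.1% of all 16822 genes tested at both times. The share was 53.2% (74 of 139) for the positive genes, near that of all genes, and 65.5% (165 of 252) for the negative ones. An unadjusted p under 0.05 was reached by 69 of the 391 (17.6%, beside 11.7% of all genes), 49 with the sign of 5 days and 20 with the opposite sign. Of the 18 clock genes 15 were higher in aJ1aJ2 at 7 days, and 15 of the 18 reached an unadjusted p under 0.05. Cry2 was higher by 0.76 (SE 0.14, edgeR adjusted p = 0.112), Dbp by 0.72 (SE 0.21, edgeR adjusted p = 0.226) and Nr1d1 by 0.34 (SE 0.15, edgeR adjusted p = 0.428). All 7 Notch readouts were lower, 5 of them at an unadjusted p under 0.05. Of 34 interferon-stimulated genes tested 31 were lower, 14 of the list at an unadjusted p under 0.05, and of 17 chaperones 12 were lower, 1 of the list at that level. Of all genes tested at 7 days 48.8% were lower and 11.6% reached that level. For other genes the log2 fold change at 7 days was −0.14 (SE 0.32) for Hspa5, 0.02 (SE 0.22) for Dok5, −0.08 (SE 0.15) for Col6a3 and 0.02 (SE 0.16) for Cirbp. Isg15 was at −0.89 (SE 0.37, edgeR adjusted p = 0.392), and Ccl2, Ccl7, Ccl12 and Cd209c did not pass the count filter at 7 days.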

How the data were processed

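RNA sequencing of 50 mouse thyroid libraries gave 2 tables. The authors deposited counts per gene, whole numbers without normalization, and FPKM values (counts scaled to gene length and library depth). GSNAP and limma are named in the submitters' processing notes, without a role or version. Which genome build, annotation, counting program and strand setting were used is not given in the sources used here. Per the labels' protocols, reads were single-end. Column IDs matched library titles one to one (0 columns without a library), and groups and replicate numbers came from the titles.

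Counts were tested in R 4.3.3 by the quasi-likelihood test of edgeR 4.0.16 (robust glmQLFit, glmQLFTest) after TMM scaling; filterByExpr kept genes at min.count 10 and min.total.count 15. The test was 1 fit of the 18 libraries with a Tg share of at least 5%. The 4 groups share 1 estimate of the spread. Adjusted p-values follow Benjamini and Hochberg over all genes tested and are two-sided, with a threshold of 0.05. Standard errors were derived from the F statistic. Levels are CPM on the TMM-scaled library size. CPM of libraries left out come from the scaling of 20 libraries, and the 7-day libraries were fitted separately. The script was tested on simulated counts.

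Genes named are the 12 positive and 12 negative with the smallest p among those past the threshold that have a symbol other than a predicted-gene name and at least 1 CPM on average in 1 group. To these come up to 4 members past the threshold of each gene list, or 2 where none passed, all Notch readouts and, as values, thyroid function genes, of which some are not reported here. The libraries, lists and rules were chosen with earlier results of these data known. Symbols matched 52403 of 52636 genes. Exon overlap was taken from GENCODE M21, and promoter windows and their coordinates from RefSeq. Replicate pairs (40) were checked for duplicates: the smallest chi-square per degree of freedom was 18.8, so every library was counted as a separate sample. Alternatives were RLE size factors, no count filter, DESeq2 1.42.0, limma 3.58.1 (voom with quality weights, and log2 FPKM with a pseudocount of 1 or 0.1), a replicate block, a muscle covariate, library size without Tg, a Tg minimum of 10%, the aN1aN2 libraries in the fit and leaving out libraries. Leaving out the 3 muscle-rich libraries was chosen after seeing the data.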

Additional observations from a re-analysis of the deposited data

Results flagged for a closer look

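In 132 groups tested for 31 genes and the library shares, 10 held a library far from the others by Dixon's criterion, and chance gives about 1 in 20 groups. The genes were Hpd (0.0411 CPM in RW replicate 1 at 5 days, the others at 0), Nr1d2 (34.2 CPM in RW replicate 5 at 5 days), Tm4sf1 (55.1 CPM in RW replicate 4 at 5 days), Ccdc25 (32.2 CPM in aJ1aJ2 replicate 2 at 15 hours) and Nrarp (1.62 CPM in aJ1aJ2 replicate 5 at 15 hours). For library shares, aJ1aJ2 replicate 3 at 15 hours stood apart with 14.5% Tg and 5.54% muscle counts. The libraries left out stood apart with 0.450% Tg and 12.1% muscle counts (RW replicate 3) and 8.33% muscle counts (aJ1aJ2 replicate 3).

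The ligand blockade effect differed between 5 days and 15 hours by the interaction test for 411 genes. Interactions (log2) of the named genes past the threshold were as follows. For positive genes picked by p-value they were 2.32 for Nr1d1, 7.42 for Hpd, 0.89 for Ypel3, 3.01 for Cd209c, 1.13 for Flcn, 0.91 for Cyp2d22, 1.28 for Grap, 1.5 for Nr1d2, 1.82 for Ppargc1a, 0.70 for Miip, 3.92 for Tat and 1.58 for Traf1. For negative genes picked by p-value they were −1.04 for Tm4sf1, −4.65 for Ccl12, −2.40 for Dok5, −1.04 for Sh3pxd2b, −2.04 for Shisal1, −6.44 for Ccl2, −0.87 for Ascc3, −0.92 for Ccdc25, −3.17 for Isg15, −5.79 for Ccl7, −0.87 for Hdlbp and −2.30 for Ifi44. From the lists came Ifih1 (−0.93) and Bst2 (−2.0), the chaperones Sel1l (−1.21), Hsp90b1 (−1.79), Dnajb11 (−1.57) and Hspa5 (−2.0), and the clock genes Dbp (3.49) and Cry2 (1.22). The liver genes were Ahsg (3.79), Hpx (3.37), Apoa2 (2.61) and Ttr (2.78), and the temperature-linked genes Cirbp (1.49), Stip1 (−0.77), Dnaja1 (−1.19) and Hspa4l (−0.99). The matrix genes were Col6a3 (−1.16), Col3a1 (−1.33), P4ha1 (−1.03), Serpinh1 (−1.12) and Timp1 (−1.86), and the rest were Lcn2 (−2.56), Asns (−0.93) and Krt5 (7.55).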

How the results depend on the processing

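Counts of genes past the threshold depended on the libraries and the tool. The interaction count of 411 was 25 with all 20 libraries, 97 without the count filter, 1164 with DESeq2, 3053 with limma voom (2900 with all 20 libraries), 95 on log2(FPKM + 1) and 917 with a muscle covariate. On log2(FPKM + 0.1) it was 300, with 47.7% positive against 36.5%. Leaving out 1 library gave 34 to 741. Among RW libraries at 15 hours, leaving out replicate 2 gave 70, replicate 4 gave 148 and replicate 5 gave 217. Among aJ1aJ2 libraries at 15 hours, replicate 1 gave 132, replicate 3 gave 741, replicate 4 gave 258 and replicate 5 gave 212. At 5 days RW replicate 1 gave 103, replicate 2 gave 34 and replicate 5 gave 132, and aJ1aJ2 replicate 2 gave 63, replicate 4 gave 68 and replicate 5 gave 54. The 15-hour count of 194 was 87 with all 20 libraries, 358 with DESeq2 and 84 without the 3 muscle-rich libraries (26.2% higher against 55.7%), and 95 (without RW replicate 2 at 15 hours) to 221 with 1 library left out, with 121 without aJ1aJ2 replicate 5 at 15 hours. The 5-day count of 611 was 207 with all 20 libraries, 298 without the filter, 1412 with DESeq2, 4055 with voom (3733 with all 20), 353 on log2(FPKM + 1), 407 with the aN1aN2 libraries, 1293 with the muscle covariate and 1848 without the muscle-rich libraries. With 1 library left out it was 126 (RW replicate 2 at 5 days) to 1093 (aJ1aJ2 replicate 3 at 15 hours), and 174 to 267 without replicate 1 or 5 of RW or replicate 2, 4 or 5 of aJ1aJ2 at 5 days. The 7-day count of 0 was 417 with DESeq2, 20 without the filter and 0 to 20 with 1 library left out (20 without RW replicate 4). The cause was not tested for these settings.

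Of 48 named genes past the threshold, 25 stayed past it in all 18 fits without 1 library, and 23 lost it in some, among them all 4 named chaperones and both collagens. All 24 genes picked by p-value were among the 25, which their choice by small p favours, and 13 of the 24 missed the threshold with all 20 libraries. With all 20 libraries 15 of the 48 passed, with the replicate block 28, with DESeq2 48 and with voom 46. Dtx1 turned sign in 15 settings, from an interaction of −0.01: 0.42 with all 20 libraries, 0.0091 with RLE, 0.0016 without the filter, 0.012 with DESeq2, 0.020 on log2(FPKM + 0.1), 0.078 with the muscle covariate, 0.016 without Tg in the library size, and up to 0.33 in 8 of the 18 fits without 1 library, which gave −0.36 to 0.33. Lcn2 turned to 1.20 with all 20 libraries.

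The replicate numbers did not pair libraries: over 25 same-numbered pairs the correlation of deviations was −0.562 to 0.398 (median 0.0154, 0.0203 for other pairs), and 1 of 18 libraries correlated best with its own number. With the replicate block the interaction count was 65, the 15-hour count 109 and the 5-day count 309. The block gave 2 interferon-stimulated genes against 21, 0 chaperones against 8, 2 clock genes against 5 and 1 liver gene against 5, and log2(FPKM + 1) gave 1, 0, 2 and 3.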
